A study of Mus musculus with 6 samples.

Results

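The miRNAs of the imprinted Dlk1-Meg3 region were followed across 6 small RNA libraries. Members were chosen by name, from a list of 43 miRNA numbers of this region, and kept only if the deposited table gave them a mouse position. Rows with the same name and the same sequence were summed, which left 24 sequences from 18 hairpins, of 756 features in all. The other 25 numbers of the list had no member. All 6 libraries were labelled as Mes23.5, a dopaminergic line made by fusing mouse neuroblastoma cells with rat midbrain cells, and as stimulated for 24 h with LPS, a component of the bacterial cell wall. The SIX2_EV group (3 libraries) received extracellular vesicles of microglia overexpressing the transcription factor SIX2, and the control_EV group (3 libraries) received vesicles of control microglia. No library without LPS and none without vesicles entered the comparison. The growth protocol names BV2, a mouse microglial line, instead of Mes23.5. Whether the 3 libraries of a group are separate cultures is not stated in the labels, and p-values then reflect only how far these libraries spread, which may be a technical spread. RNA was extracted in bulk, so fewer cells carrying a miRNA and less of it per cell cannot be told apart.

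The Dlk1-Meg3 region is imprinted, which means that a gene copy is used or silenced according to the parent it came from. The protein-coding genes Dlk1, Rtl1 and Dio3 are expressed from the paternal copy, and the long non-coding RNAs Meg3, Rian and Mirg and the miRNAs from the maternal copy. Most of these miRNAs exist only in placental mammals, and they are known for high levels in embryo, placenta and brain. A miRNA is cut from a hairpin as a 5p or a 3p arm, and its seed, bases 2 to 8 from the 5′ end, leads it to target transcripts.

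The 8 members with enough reads for a test are shown first, because each tested difference between the groups is that of one of them. They are given as deposited (T for U), 5′ to 3′, in order along the chromosome, with the seed in capitals.
miR-127-3p: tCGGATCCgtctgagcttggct
miR-136-3p: cATCATCGtctcaaatgagtct
miR-379-5p: tGGTAGACtatggaacgtagg
miR-411-5p: aTAGTAGAccgtatagcgtacg
miR-494-3p: tGAAACATacacgggaaacctct
miR-381-3p: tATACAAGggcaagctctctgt
miR-369-3p: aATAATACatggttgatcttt
miR-410-3p: aATATAACacagatggcctgt

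No seed is shared among these 8. Over all 24 members there were 23 distinct seeds, and the only shared one, ATGTAAC, belonged to miR-379-3p and miR-411-3p. Those 2 sequences differ at a single base, T10C counted from the 5′ end of miR-379-3p, shown in capitals.
miR-379-3p: tatgtaacaTggtccactaac
miR-411-3p: tatgtaacaCggtccactaac
A second close pair, miR-300-3p and miR-381-3p, differs over the 20 compared bases only by G4A, which lies inside the seed.
miR-300-3p: tatGcaagggcaagctctct
miR-381-3p: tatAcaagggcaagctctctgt
Reads of such pairs are told apart by 1 base, so a read with an error there would be counted for the partner.

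All 24 members were placed on the plus strand of chromosome 12. In RefSeq annotation of GRCm38.p6 their 18 hairpins run from Mir493 to Mir410, chr12:109580233-109743795, a stretch of 163.6 kb. The deposited positions belong to another build, not named in the sources used here, and hairpins were therefore matched by name. The largest distance between neighbours, 113.7 kb, separates Mir136 from Mir379, and the next largest is 10.1 kb. The members are described below as 2 stretches on either side of that distance, the Rtl1 stretch (Mir493, Mir431, Mir127 and Mir136) and the miR-379 to miR-410 stretch. In GENCODE M21, Mir431, Mir127 and Mir136 lie opposite an exon of Rtl1, a retrotransposon-derived gene whose transcript the antisense miRNAs are known to cleave. The hairpins of miR-382, miR-154, miR-409, miR-369 and miR-410 lie within the non-coding gene Mirg, 3 of them overlapping a Mirg exon, and 10 hairpins lie in no annotated gene.

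The sequences were compared with the mouse mature miRNAs of RefSeq, which held the matching arm for 22 of the 24. Of these 22, 10 were identical, 11 had the same bases with other ends and 1 had a mismatch. Ends matter where the start moves, since that moves the seed. The start differed in 4 members (miR-127-5p, miR-136-3p, miR-411-5p and miR-382-3p), and in 18 of 22 the seed was that of the mouse entry. Of these 4, miR-136-3p was the same as the miRBase entry of its rat name, so there the rat and mouse entries differ. The most abundant of the shifted forms, miR-411-5p, starts 1 base earlier than the RefSeq entry, as the alignment of both shows, with bases 2 to 8 of each in capitals.
miR-411-5p, deposited: aTAGTAGAccgtatagcgtacg
mmu-miR-411-5p, RefSeq: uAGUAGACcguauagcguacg
Although 22 members carry rat names, 1 a human and 1 an armadillo name, 22 matched the deposited mouse hairpin with no mismatch. The 2 exceptions were hsa-miR-376c-3p, with T16C, and dno-miR-154a-3p, with G15C, both counted from the 5′ end with the mouse base first, and in both the seed was unaffected. The hairpins named for the members also included cattle hairpins for 21 of the 24 and human hairpins for 21. From which species the reads came was not tested.

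The libraries differed in how many miRNA reads they held, and this bears on every count that follows. Deposited reads ranged from 179621 to 232635 in SIX2_EV and from 253037 to 421279 in control_EV. Reads of mature miRNAs with a known mouse hairpin made up 6.79% to 32.7% of them in SIX2_EV and 31.5% to 70.9% in control_EV, that is 15788 to 60147 reads against 81154 to 298535. SIX2_EV 3 and control_EV 3 stood apart, with 7.94% and 7.47% of their reads from mir-1285 against at most 0.447% in the other 4. Values between 0 and 5 reads are almost missing from the table (31 of 2410 values above 0), so a value of 0 means listed at 0 and not absent. Levels are given in CPM, read counts scaled to a common library size by TMM, an edgeR adjustment that lines up the bulk of the features. On that scale 5 reads are worth 69.5 CPM in SIX2_EV 2, the library with the fewest mature reads, and 4.44 CPM in control_EV 3, with the most. SIX2_EV 2 nevertheless had the most deposited reads of its group (232635). Of 8 neuronal marker miRNAs 5 were listed, but miR-124-3p, miR-9-3p and miR-138-5p were in no library, and miR-9-5p in 1. All 6 microglial or leukocyte markers were listed, and their summed level ran from 30639 to 32357 CPM under SIX2_EV and from 24643 to 47154 CPM under control_EV. The neuronal sum ran from 2039 to 3014 CPM and from 2285 to 3288 CPM, and that of 3 red blood cell or serum miRNAs from 14505 to 22218 CPM and from 9843 to 31635 CPM. Most of the neuronal sum was miR-7a-5p (1558 to 2866 CPM). Likewise, most of the microglial or leukocyte sum was miR-146a-5p (18676 to 41382 CPM), and most of the red blood cell or serum sum was miR-451a (5578 to 27130 CPM). The sums therefore follow 1 miRNA each. The neuronal marker miR-128-3p was at 75.5, 125 and 99.3 CPM under SIX2_EV, below its 181, 268 and 276 CPM under control_EV (log2 fold change −1.28, SE 0.59, adjusted p = 0.489, edgeR). The microglial or leukocyte marker miR-142-5p was lower without overlap too (2529, 2751 and 3727 CPM against 4020, 4103 and 3758 CPM). So was the red blood cell or serum marker miR-144-3p (1510, 1459 and 1286 CPM against 2010, 2131 and 1811 CPM). For the other markers of these lists the groups overlapped. Of all tested features, 16.9% were likewise lower under SIX2_EV without overlap. For the neuronal markers miR-7a-5p and miR-129-5p the groups overlapped, with log2 fold changes of −0.06 and −0.74 (adjusted p = 0.943 and 0.857, edgeR). The level of miR-218-5p was 18.6 CPM in control_EV 3, the only library that listed it. The part of these markers in the levels below was not tested.

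The cluster was a small share of the miRNAs in every library. SIX2_EV 1, 2 and 3 held 76, 34 and 216 reads of its members, and control_EV 1, 2 and 3 held 201, 383 and 1475. As a share of mature miRNA reads, with 95% Wilson intervals in parentheses, SIX2_EV stood at 0.305% (0.243 to 0.381), 0.215% (0.154 to 0.301) and 0.359% (0.314 to 0.410). In control_EV it was 0.248% (0.216 to 0.284), 0.267% (0.241 to 0.295) and 0.494% (0.470 to 0.520). In each group the library labelled 3 was the highest, and the groups overlapped. The intervals cover counting error only, since PCR reads are not independent molecules.

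**Figure D1:**
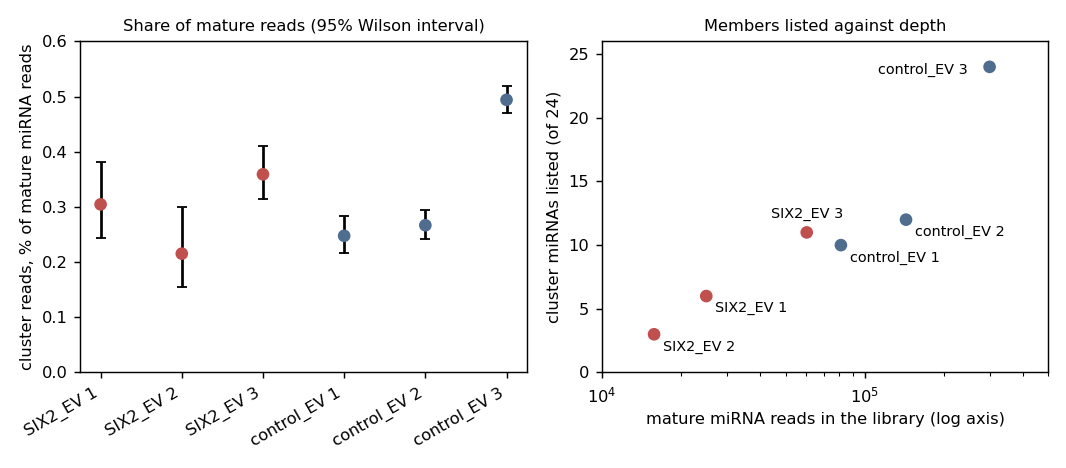
Left: share of mature miRNA reads (percent) that came from the 24 cluster miRNAs in each library, with 95% Wilson intervals. Right: number of cluster miRNAs listed against the mature miRNA reads of the library (log axis). The share is highest in control_EV 3 (0.494%). The number listed runs from 3 in SIX2_EV 2, with the fewest mature reads, to 24 in control_EV 3, with the most.

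On the TMM scale the summed level of the cluster was 717, 472 and 975 CPM under SIX2_EV, against 729, 951 and 1309 CPM under control_EV. The means were 721 ± 251 (SD, n = 3) and 996 ± 292 CPM (SD, n = 3), a log2 ratio of −0.47, and the groups overlapped. As a share of mature miRNA reads, the means were 0.293% ± 0.0726 and 0.336% ± 0.137 (SD, n = 3 each), a log2 ratio of −0.20. Set against all deposited reads, the means were 0.0581% ± 0.0531 and 0.193% ± 0.141 (SD, n = 3 each), a log2 ratio of −1.73. The sign is the same on these 3 scales while the size is not, and the groups overlapped on each. With values of 0 set to 4 reads, just under the usual lowest listed value, the ratio turned to 0.44. This fill adds more to the SIX2_EV libraries, where 5 reads are worth 22.6 to 69.5 CPM, against 4.44 to 18.1 CPM in control_EV. The turned ratio is thus no estimate of the level.

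The number of members listed was lowest in the library with the fewest mature reads and highest in the one with the most. It was 6, 3 and 11 under SIX2_EV, against 10, 12 and 24 under control_EV. All members were listed in control_EV 3, 2 (miR-127-3p and miR-379-5p) in all 6 libraries, and none only in SIX2_EV. In no SIX2_EV library were 12 members listed, 50% of the 24, against 30.2% of the 364 other mature miRNAs with a mouse hairpin. Only control_EV 3 listed 11 members (45.8%) against 71 of those 364 (19.5%). Members listed in all 6 libraries were 8.33%, against 35.99% of the others. A larger share of the cluster than of the other miRNAs was thus listed in few libraries, and no member value above 0 was under 5 reads. The 364 others were not matched to the members by level, and the part of level in this difference was not tested. When the counts of control_EV 3 were scaled down to the mature reads of each other library, 7, 5 and 13 members stayed at 5 reads or more in SIX2_EV 1, 2 and 3, and 14 and 18 in control_EV 1 and 2. Of these, the SIX2_EV libraries listed 2, 4 and 3 at 0, and control_EV 1 and 2 listed 5 and 6 at 0.

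**Figure D2:**
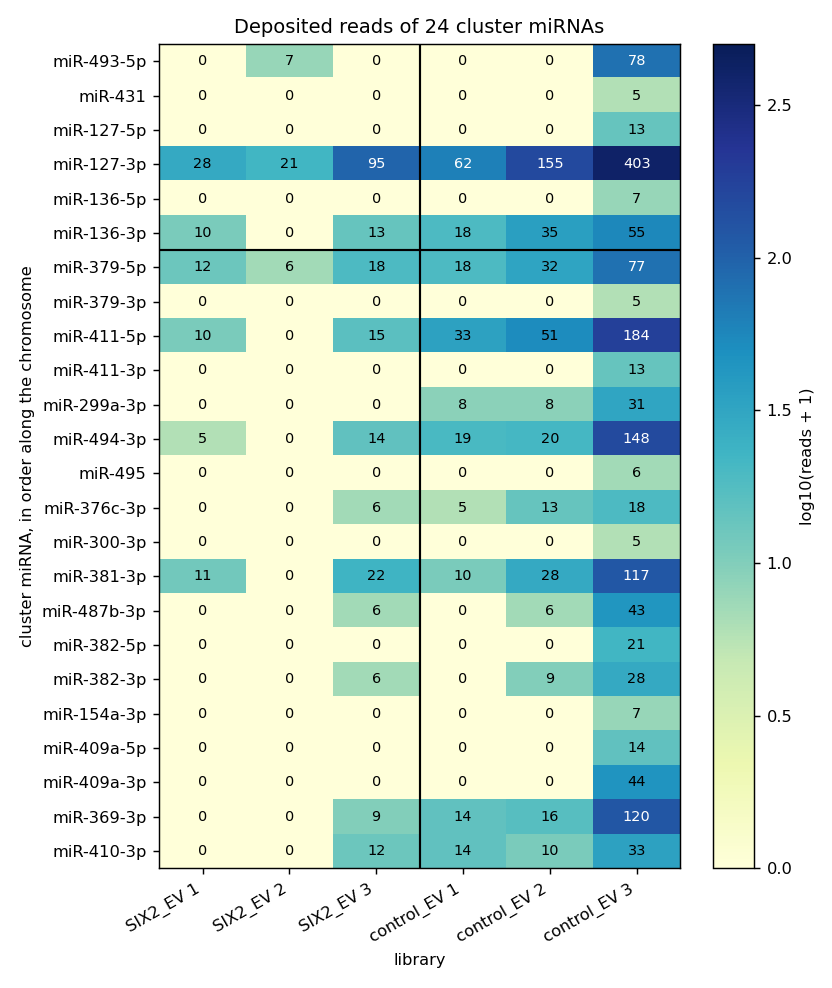
Deposited reads of the 24 cluster miRNAs (rows, in order along the chromosome, with a line between the 2 stretches) in the 6 libraries (columns), coloured by log10(reads + 1). miR-127-3p has the most reads in each of the 6 libraries, from 21 reads in SIX2_EV 2 to 403 in control_EV 3, and 11 rows have reads only in control_EV 3.

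The most abundant member was miR-127-3p, which lies antisense to Rtl1. Its reads were 28, 21 and 95 under SIX2_EV, and from 62 to 403 under control_EV. In CPM the SIX2_EV libraries were at 264, 292 and 429, against 225, 385 and 358 in the controls. The groups overlapped throughout their range, with means of 328.2 ± 88.0 and 322.5 ± 85.6 CPM (SD, n = 3 each) and a log2 fold change of 0.03 (SE 0.45, adjusted p = 0.994, edgeR quasi-likelihood test, Benjamini-Hochberg). The sign of a value this close to 0 depended on the scaling and was negative with library totals (−1.25). By its mean control_EV level miR-127-3p ranked 98 of the 388 mature miRNAs. Its other arm, miR-127-5p, was listed only in control_EV 3, with 13 reads.

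The other tested member of the Rtl1 stretch, miR-136-3p, gave 10, 0 and 13 reads under SIX2_EV, against 18, 35 and 55 under control_EV. Its levels were 94.4, 0 and 58.7 CPM against 65.3, 86.9 and 48.8 CPM, so that the groups overlapped and SIX2_EV 2 alone was listed at 0. The log2 fold change was −0.36 (SE 1.17, adjusted p = 0.943, edgeR), and it turned to 0.30 without SIX2_EV 2 and was −1.09 without SIX2_EV 1. Its partner miR-136-5p had 7 reads, and rno-miR-431_R-1, a neighbour that also lies antisense to Rtl1, had 5 reads, both in control_EV 3 only. At the head of the stretch, miR-493-5p had 7 reads in SIX2_EV 2 and 78 in control_EV 3 and was listed at 0 in the other 4 libraries. It was singled out after its values were seen: scaled to the mature reads of control_EV 2, its control_EV 3 count would be 37.5 reads, yet it was listed at 0 there.

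In the miR-379 to miR-410 stretch, miR-379-5p, its first miRNA, was listed in every library. It gave 12, 6 and 18 reads under SIX2_EV, against 18, 32 and 77 under control_EV. Scaled, these were 113, 83.4 and 81.2 CPM against 65.3, 79.5 and 68.3 CPM. The 3 SIX2_EV values all lay above the 3 control_EV values, by a narrow margin, and they did so as shares of mature reads too. The means were 92.6 ± 17.9 and 71.0 ± 7.46 CPM (SD, n = 3 each), with a log2 fold change of 0.38 (SE 0.67, adjusted p = 0.857, edgeR). The value was −0.99 when library totals set the scale. Its 3p arm had 5 reads in control_EV 3 only.

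The neighbouring miR-411-5p had the opposite order. Its reads were 10, 0 and 15 under SIX2_EV, against 33, 51 and 184 under control_EV, and its levels 94.4, 0 and 67.7 CPM against 119.7, 126.7 and 163.3 CPM. All 3 SIX2_EV values lay below all control_EV values on this scale, but the groups overlapped as shares of mature reads. The means were 54.0 ± 48.7 and 136.6 ± 23.4 CPM (SD, n = 3 each) and the log2 fold change was −1.30 (SE 1.16, adjusted p = 0.720, edgeR). Without SIX2_EV 2 it was −0.65, and without SIX2_EV 1 it was −1.93. In SIX2_EV 2, which listed it at 0, 5 reads would have been 69.5 CPM.

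For miR-494-3p, which lies further along this stretch, the reads were 5, 0 and 14 under SIX2_EV, against 19, 20 and 148 under control_EV. The levels were 47.2, 0 and 63.2 CPM against 68.9, 49.7 and 131 CPM, and the groups overlapped. The log2 fold change was −1.11 (SE 1.16, adjusted p = 0.756, edgeR), and it was −0.53 without SIX2_EV 2 and −0.50 without control_EV 3. For miR-381-3p, which differs from miR-300-3p by the 1 seed base shown above, the reads were 11, 0 and 22 under SIX2_EV, against 10, 28 and 117 under control_EV. Its levels were 103.8, 0 and 99.3 CPM against 36.3, 69.5 and 103.8 CPM, and the groups overlapped. Its log2 fold change of −0.02 (SE 1.24, adjusted p = 0.998, edgeR) was 0.63 without SIX2_EV 2 and 0.56 without control_EV 3. The partner miR-300-3p, whose matching hairpins in the table are all from rodents, had 5 reads in control_EV 3.

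At the far end of the stretch, within Mirg, miR-369-3p had the lowest ratio of the tested members. This miRNA is known for binding the AU-rich element of the TNF transcript. Its reads were 0, 0 and 9 under SIX2_EV, against 14, 16 and 120 under control_EV, that is 0, 0 and 40.6 CPM against 50.8, 39.7 and 106.5 CPM. The single SIX2_EV library that listed it lay just above the lowest control_EV library, so the groups overlapped. The means were 13.5 ± 23.4 and 65.7 ± 35.8 CPM (SD, n = 3 each), with a log2 fold change of −2.02 (SE 1.39, adjusted p = 0.603, edgeR) that was −1.43 without control_EV 3. Without SIX2_EV 3 no SIX2_EV library had reads left, and a fitted ratio is then no bound. The last hairpin gave miR-410-3p, with 0, 0 and 12 reads against 14, 10 and 33 reads and 0, 0 and 54.1 CPM against 50.8, 24.8 and 29.3 CPM. Here SIX2_EV 3 was the highest of all 6 libraries, the groups overlapped, and the log2 fold change was −0.73 (SE 1.38, adjusted p = 0.857, edgeR). It too had no SIX2_EV reads left without SIX2_EV 3.

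**Figure D3:**
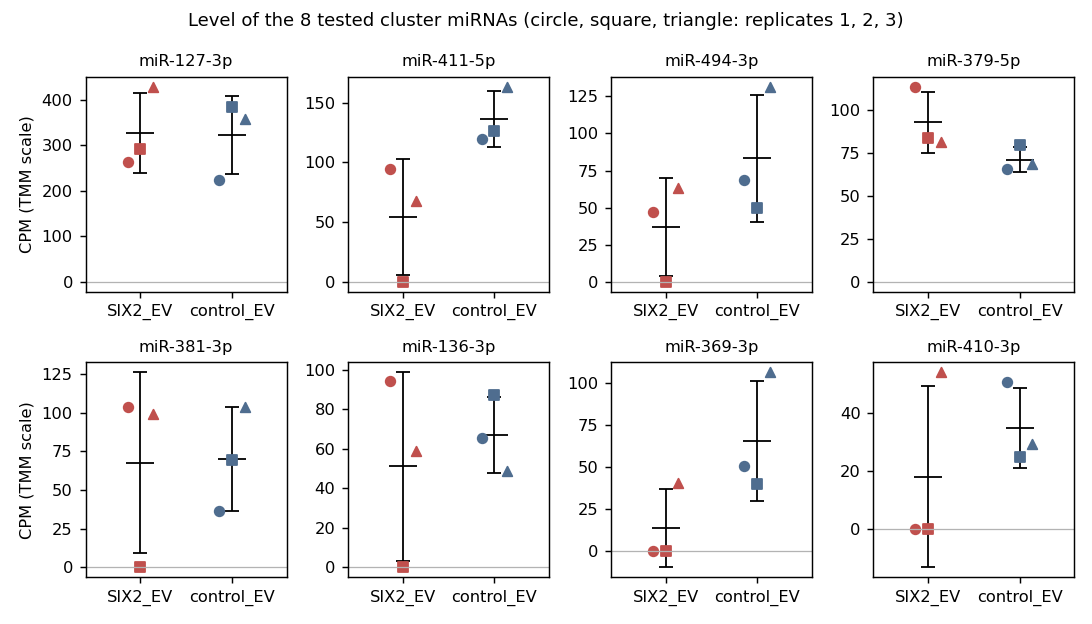
Level (CPM on the TMM scale) of the 8 tested cluster miRNAs in the SIX2_EV and control_EV libraries, 1 panel per miRNA; points are libraries (circle, square and triangle for replicates 1, 2 and 3). The groups do not overlap for miR-379-5p, higher in SIX2_EV, and for miR-411-5p, lower in SIX2_EV, and 6 of the 8 are at 0 in SIX2_EV 2.

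None of the 8 tested members passed an adjusted p of 0.05, and none had an unadjusted p under 0.05. Over all 319 features tested with edgeR the adjusted test called 0%, with a smallest adjusted p of 0.361, while 39 features had an unadjusted p under 0.05, the lower ones among them being 6.58% of all tested. DESeq2 called 20 of its 312 features, 6.41%, and no member, the lowest adjusted p of a member being 0.494. Groups that did not overlap were found for 1 of 8 members on the lower side, against 16.9% of all tested features, and for 1 of 8 on the higher side, against 5.96%. The log2 fold change was negative for 6 of 8 members, against 64.6% of all tested features. The median over the 8 was −0.54, beside −0.30 over the 319 and −0.43 over the 211 tested mature miRNAs with a mouse hairpin, of which 167 were negative. These shares are near the background. The 8 members held 82.7% of the reads of the cluster. The filter kept features with enough reads in about 3 libraries, so a member such as miR-369-3p could pass through its control_EV reads alone, and the counts above describe the tested members only.

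The median ratio moved with the scale. Library totals gave a median of −1.41 over the 8 and −1.52 over all features. Scaling by the reads of mature miRNAs with a mouse hairpin gave −0.03 over the 7 members that it tested and 0.07 over all features, with 4 of those 7 members and 47.0% of all features negative. Setting zeros to 4 reads gave 0.13 and −0.06. Without SIX2_EV 3 and control_EV 3, the libraries that stood apart, the median was −0.38 over 7 tested members and −0.21 over all features, and the summed level had a log2 ratio of −0.30. None of the 8 passed an adjusted p of 0.05 under any of the 19 alternatives.

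**Figure D4:**
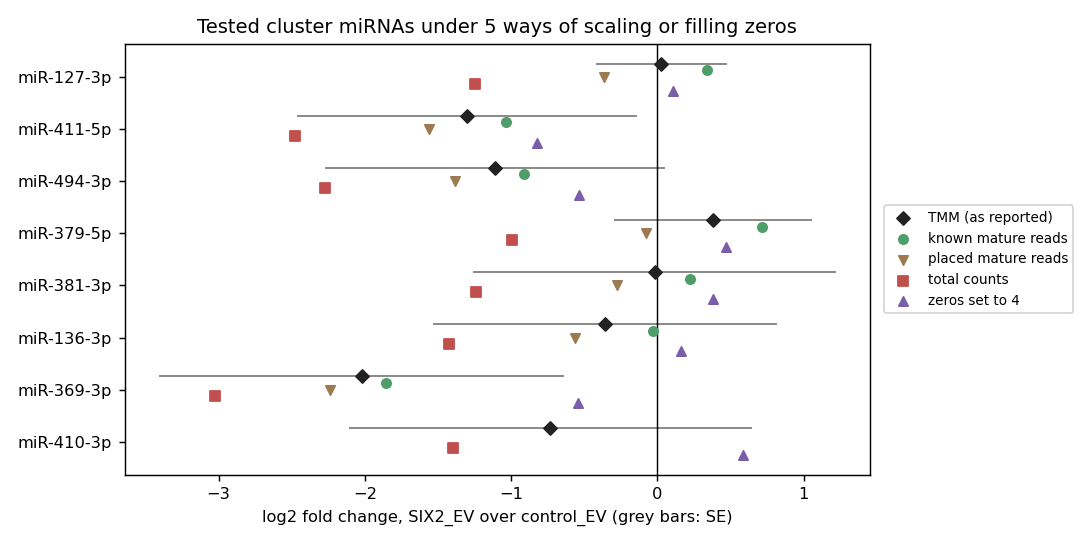
Log2 fold change (SIX2_EV over control_EV) of the 8 tested cluster miRNAs under several ways of scaling the libraries, with the SE of the TMM fit as grey bars and a line at 0. With library totals all points shift to lower values, to −1.25 for miR-127-3p and −0.99 for miR-379-5p, and miR-410-3p was not tested under either scaling by mature reads.

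A further 4 members were listed in at least 3 libraries and not tested. In all 3 control_EV libraries miR-299a-3p was listed, with 8, 8 and 31 reads, and in no SIX2_EV library. Its control_EV level, 25.5 ± 4.91 CPM (SD, n = 3), was close to or under what 5 reads are worth in the SIX2_EV libraries (22.6 to 69.5 CPM), so no fold was drawn. For hsa-miR-376c-3p, of a family known for A-to-I editing, the reads were 0, 0 and 6 against 5, 13 and 18. For miR-487b-3p they were 0, 0 and 6 against 0, 6 and 43, and for miR-382-3p 0, 0 and 6 against 0, 9 and 28. Each of these 3 had its only SIX2_EV reads in SIX2_EV 3, the deepest of that group in mature reads.

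The 11 members listed only in control_EV 3 had 5 to 44 reads. The highest was rno-miR-409a-3p_L+1R+1, with 44 reads and 39.0 CPM, and it is identical to the mouse entry of RefSeq despite its name. Its sequence and that of its partner arm are given with the seed in capitals.
rno-miR-409a-3p_L+1R+1: gAATGTTGctcggtgaacccct
rno-miR-409a-5p_R-1: aGGTTACCcgagcaactttgca
The 5p arm, rno-miR-409a-5p_R-1, had 14 reads there, and rno-miR-495 had 6. Scaled to the mature reads of control_EV 2 and control_EV 1, the count of rno-miR-409a-3p_L+1R+1 would be 21.2 and 11.96 reads, above the listing level, and it was listed at 0 in both. Of the 82 mature miRNAs listed only in control_EV 3, 2 had at least 44 reads. Of 217 mature miRNAs whose control_EV 3 count scaled to at least 20 reads in control_EV 2, 6 were listed at 0 there. Members were 2 of these 6 and 10 of the 217. The cut of 44 reads is the count of rno-miR-409a-3p_L+1R+1 itself. That of 20 reads was not planned and lies just under its scaled 21.2 reads. No excess of members is therefore read from these counts.

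Both arms of 6 hairpins were listed, each only in control_EV 3. Mir127 gave 13 reads of the 5p and 403 of the 3p arm, a 3p share of 96.9% (95% Wilson interval 94.7 to 98.2). Mir136 also favoured the 3p arm, with 88.7% of 62 reads, whereas Mir379 (93.9% of 82 reads) and Mir411 (93.4%, 89.0 to 96.1) favoured the 5p arm. For Mir409 the 3p arm had 75.9% (63.5 to 85.0), and for Mir382 it had 57.1% (43.3 to 70.0), an interval that includes equal use. Over the 24 members 8 were 5p and 16 were 3p arms.

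The division of the reads between the stretches differed among libraries. The Rtl1 stretch held 50%, 82.4% and 50% of the cluster's reads in SIX2_EV (38 of 76, 28 of 34 and 108 of 216) and 39.8%, 49.6% and 38.0% in control_EV (80 of 201, 190 of 383 and 561 of 1475). The groups did not overlap, but the nearest libraries were within each other's Wilson interval: 39.0% to 61.0% for SIX2_EV 1 and 44.6% to 54.6% for control_EV 2. This share was noticed in the data and was not tested. SIX2_EV 2, where it was highest, had the fewest mature reads and listed 3 members. The part of depth in this share was not tested either. In CPM the Rtl1 stretch was at 411.6 ± 67.2 under SIX2_EV and 420.0 ± 113 under control_EV, and the miR-379 to miR-410 stretch at 310 ± 206 and 576 ± 204 (SD, n = 3 each). The groups overlapped in both stretches. SIX2_EV 2 had 83.4 CPM in the latter stretch, all from 6 reads of miR-379-5p. miR-127-3p alone made up 36.8%, 61.8% and 43.98% of the cluster's reads in SIX2_EV and 30.8%, 40.5% and 27.3% in control_EV, and these overlapped.

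Of 11 further miRNA names of the region outside the member list, 1 was found, miR-758-3p, with 10 reads in control_EV 3. Of 5 imprinted miRNAs from other loci 1 was found, miR-335, which is hosted by the imprinted gene Mest. It had 8, 5 and 0 reads under SIX2_EV, against 6, 36 and 84 under control_EV. The log2 fold change was −0.42 (SE 1.43, adjusted p = 0.943, edgeR). Outside the member list 3 features carried the seed of a member, none with more than 7 reads in a library. They have no mouse position and are named as miR-376e and miR-487a, of families that this region holds. Left out were 4 features whose names match the list but which have no mouse position. The most abundant of them, named as cattle miR-380-3p, had 5, 0 and 5 reads under SIX2_EV, against 9, 17 and 65 under control_EV. It differs from the mouse RefSeq sequence at 3 bases, G7A, A9G and A18G, counted from the 5′ end with the mouse base first. The names of a further pair of tested features, bta-miR-411c-5p and bta-miR-154c, resemble member names, but they are not on either name list and have no mouse position, so whether they belong to the region was not tested. They are given here after their values were seen. bta-miR-411c-5p was at 0, 0 and 49.6 CPM under SIX2_EV, below the 58.1, 121.7 and 84.3 CPM of control_EV (log2 fold change −2.18, SE 1.42, adjusted p = 0.596, edgeR). In SIX2_EV 1 and 2, which listed it at 0, 5 reads would have been 47.2 and 69.5 CPM. Groups apart on the lower side were found for 16.9% of all tested features. For bta-miR-154c the groups overlapped, with a log2 fold change of −0.20 (SE 1.22, adjusted p = 0.964, edgeR).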

How the data were processed

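Per the labels' protocols, Trizol total RNA went into TruSeq small RNA libraries, and the authors filtered reads with ACGT101-miR. The sources used here name no mapping settings, genome build or miRBase release. Per the file headers, the deposited raw columns are estimated counts by the authors for each miRNA sequence and locus. The authors' normalized signal (each count multiplied by a factor for its library) was used only as an alternative, as log2(value + 1). Rows of one name and sequence were summed and rounded to whole reads, since estimated counts need not be whole. All 24 members were whole within 0.05. The edgeR 4.0.16 quasi-likelihood test (R 4.3.3) was fitted to all 6 libraries with TMM and filterByExpr, without a covariate, and p-values were adjusted over all 319 tested features. DESeq2 1.42.0 and limma 3.58.1 served as alternatives. Wilson intervals came from scipy 1.17.1. The scripts were tested on simulated data.

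Replicates of a group were compared and no pair agreed within sampling noise. Every member could be named. Values in every library were given for tested members and those listed in at least 3 libraries, and others were chosen after their values were seen. The members, the lists and the markers were chosen with earlier results of these data known. Mouse sequences and hairpin positions are from RefSeq (GRCm38.p6) and gene overlaps from GENCODE M21, matched by name.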

Additional observations from a re-analysis of the deposited data

How the results depend on the processing

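In 19 alternatives to the TMM-scaled edgeR fit no member passed an adjusted p of 0.05. The lowest adjusted p of a member was 0.0871 (miR-369-3p, replicates 1 and 2 only). At most 3 members had an unadjusted p under 0.05, without SIX2_EV 3 (miR-369-3p, miR-410-3p and hsa-miR-376c-3p). In both settings the remaining SIX2_EV libraries listed these members at 0, and 5 reads would have been 47.2 and 69.5 CPM there. Such a p is therefore no measure of how much lower they were. With all 6 libraries, limma-voom gave miR-369-3p an unadjusted p of 0.0242 (adjusted p = 0.198). DESeq2 called 20 features against 0 with edgeR, and no other alternative called any. The median over tested members (−0.54) was −1.41 with total counts, −0.029 with the reads of mature names with a mouse hairpin as library size (an alternative chosen after seeing the data), −1.31 with limma-voom (−1.315), −2.36 without a filter (−2.365), −0.88 with a mean of at least 10 CPM, −1.48 on the authors' normalized signal and 0.13 with zeros set to 4 reads. Over all features the median was −0.39 with limma-voom, −1.05 without a filter, −0.51 with 10 CPM and −0.43 on the normalized signal. In these settings the members' median was the lower one. It covered 24 members without a filter and 14 with 10 CPM, some of them listed in no SIX2_EV library. Leaving out 1 library in turn gave −1.31 (without SIX2_EV 3, beside −0.47 over all features) to −0.32 for the members' median. The summed level then ran from −0.64 to −0.07, and 0 features were called each time. The summed log2 ratio (−0.47) was −1.73 by library totals, or 0.44 if zeros became 4 reads. With at least 10 reads, 7 members in place of 12 were listed in a SIX2_EV library.

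The log2 fold change of miR-127-3p (0.03) was −1.25 with total counts, −0.046 with upper quartile scaling, −0.36 with mature-named rows with a mouse position as library size, −0.044 without a filter and −0.049 with a mean of at least 10 CPM, and −0.16 to 0.27 leaving out 1 library. miR-379-5p (0.38) was −0.99 with total counts and −0.076 with mature-named rows. miR-381-3p (−0.02) was 0.22 with the reads of mature names, 0.12 with DESeq2, 0.0010 with isoforms summed, 0.38 with zeros set to 4 reads, 0.27 with replicates 1 and 2 only, and −0.44 to 0.63 leaving out 1 library. It was −1.24 with total counts, −1.23 with limma-voom and −0.92 on the normalized signal. With zeros set to 4 reads miR-136-3p was 0.16 and miR-410-3p 0.59, and leaving out 1 library gave miR-136-3p −1.09 to 0.30. The cause was not tested.

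The replicate numbers do not pair all the libraries. Deviations of same-numbered libraries correlated at 0.21, 0.067 and 0.67, and SIX2_EV 1 and SIX2_EV 2 correlated best with another number. SIX2_EV 3 correlated best with control_EV 3 (0.67), against −0.67 with control_EV 1 and −0.30 with control_EV 2. The libraries numbered 3 also held the high shares of mir-1285 reads given above. With the replicate block the median over tested members was −1.14, beside −0.43 over all features, and 0 features were called. Few reads limit these values: 16 of 24 members were under the filter and were not tested. Of the 8 tested, 6 were listed at 0 in SIX2_EV 2, and 4 of these 6 would have kept 5 reads or more there if the counts of control_EV 3 were scaled to its mature reads. The cause of these zeros was not tested.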
